A study of Mus musculus with 4 samples.

Results

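Cutting the sciatic nerve silences the tibialis anterior (TA) muscle, and the question addressed here is which genes answered the cut differently when the growth factor FGF21 was missing. FGF21 is a secreted hormone of the fibroblast growth factor family that stressed muscle can make. TA muscles came from adult male WT mice (C57BL/6J in the study's methods) and from adult male Fgf21KO mice, which lack the gene in the whole body and whose strain background is not given in the sources used here. They were taken on day 14 after denervation or from the other, innervated leg, which gives 4 groups: the innervated TA of WT (WS) and of Fgf21KO (KS) and the denervated TA of WT (WD) and of Fgf21KO (KD). The labels give a 2 mm piece of the left nerve removed and the right leg as innervated control, whereas the study's methods describe a longer excision and a sham operation on the opposite limb.

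Each group was 1 library made from RNA of 4 pooled muscles, so no difference has a replicate check, and all values describe these 4 libraries without a test. Sham and denervated muscle of a genotype may come from the same mice. The quantity described is the difference of differences: the log2 ratio of denervated over sham muscle in Fgf21KO (the KO response) minus the same ratio in WT (the WT response). Positive values mean a larger rise or a smaller fall in Fgf21KO, and negative values the opposite. Of the 13825 genes in the count table, it was computed for the 11316 whose counts averaged 50 or more across all 4 libraries. At that threshold, Rbpms2 was just inside with a mean count of 50 and Vstm4 just outside with 49.75. Levels are counts scaled to library size by the trimmed mean of M values (TMM-scaled CPM), without correction for gene length, so they are compared between libraries and not between genes.

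Library totals ran from 25249879 counts in WS to 34141303 in KS, and 3 counts corresponded to between 0.092 and 0.129 CPM. The Fgf21 transcript was not analysed here and gives no check of the genotype labels. The fast-fibre genes Myh1 and Mylpf were abundant in all 4 libraries, with at least 510937 and 171950 counts, while Acta1, Ckm and Ttn were not analysed here. Intervals given below are 95% intervals of counting error only and leave out the spread between mice. In whole muscle, fewer cells of a type and less RNA per cell cannot be told apart.

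A denervated muscle loses myosin and mitochondria, remakes its membrane around the former synapse and switches on growth-arrest and stress genes. Between the fibres, fibroblasts and fibro-adipogenic progenitors lay down collagens and matricellular proteins, and macrophages enter. These compartments read the loss of the nerve in different ways, and genes of each are described in turn.

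The responses of WT and Fgf21KO muscle were close to each other for most genes. The difference of differences had a median of -0.0046 and an SD of 0.316 over all genes, and it was within 0.25 of 0 for 7892 genes (69.7%) and within 0.5 for 10241 genes (90.5%). At the upper end, 86 genes had a difference of at least 1, which is 0.760% of all genes. At the lower end, 66 genes had a difference of -1 or less, which is 0.583%. The cut itself fell between Fancg (1.0018) and Fbxl19 (0.998) at the upper end and between Dlg4 (-1.01) and Rwdd3 (-0.986) at the lower end. No gene was at least 2-fold higher after denervation in one genotype and at least 2-fold lower in the other. With a wider limit, log2 ratios of at least 0.5 and at most -0.5 in opposite genotypes, there were 19 genes (0.168% of all genes). Of these, 10 were lower in WT and higher in Fgf21KO after denervation, and 9 were the other way round.

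**Figure D1:**
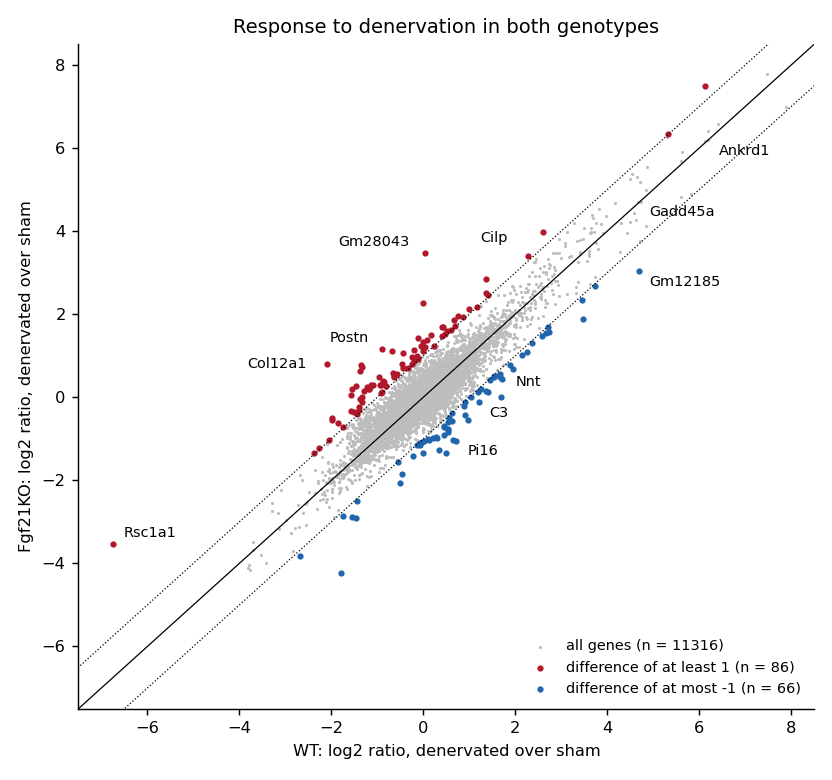
Each point is 1 gene, with the log2 ratio of denervated over sham muscle in WT on the horizontal axis and in Fgf21KO on the vertical axis. The solid line marks equal responses and the dotted lines a difference of 1; red marks the 86 genes above and blue the 66 genes below, and most other genes lie along the diagonal, including Ankrd1 and Gadd45a.

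The genes with the largest responses had similar median responses in both genotypes. The 702 genes with a mean log2 ratio of at least 1 over both genotypes had a median ratio of 1.52 in WT and 1.5 in Fgf21KO. Their median difference was 0.043, and 399 of them (56.8%) had the larger rise in Fgf21KO. The 649 genes with a mean ratio of -1 or less had medians of -1.29 in WT and -1.23 in Fgf21KO. In that group the fall was larger in Fgf21KO by a median of 0.0064, and 333 genes (51.3%) had the larger fall in Fgf21KO. The spread around these medians was wider than the medians themselves, with 19 of the rising genes at 1 or more and 19 at -1 or less. Among the 64 genes with a mean ratio of -2 or less, the median was -2.26 in WT and -2.49 in Fgf21KO, with a median difference of -0.18. Among the 188 genes with a mean ratio of at least 2, the medians were 2.69 and 2.77 and the median difference was 0.12.

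The 3 genes at the upper end with the deepest counts, Cilp, Postn and Col12a1, encode extracellular matrix. Col12a1 encodes collagen XII, which decorates collagen fibrils. Its level was 37.0, 8.59, 10.8 and 18.8 CPM (WS, WD, KS, KD). It was lower after denervation in WT (log2 ratio -2.10) and higher in Fgf21KO (0.80), a difference of 2.89 (interval 2.63 to 3.18). Postn encodes periostin, a matricellular protein that fibroblasts secrete during repair. It had 53, 21, 18.7 and 30.9 CPM (WS, WD, KS, KD), a difference of 2.05 (1.86 to 2.26). For both genes the WT sham library was the highest of the 4, and Fgf21KO sham was at least 2-fold below it. Cilp encodes cartilage intermediate layer protein, a matrix protein of cartilage, tendon and heart. Unlike Col12a1 and Postn it was higher after denervation in both genotypes, from 21.6 to 104 CPM in WT and from 14.9 to 157 CPM in Fgf21KO, a difference of 1.13 (0.93 to 1.32). It was the only gene at 1 or more averaging 1000 counts or more.

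Other genes at the upper end were, like Postn, lower after denervation in WT and higher in Fgf21KO. Ptn encodes pleiotrophin, a heparin-binding growth factor, and had 3.31, 1.26, 1.81 and 3.18 CPM (WS, WD, KS, KD), a difference of 2.14 (1.48 to 2.93). Clec11a, a secreted growth factor of bone marrow stroma, had 2.67, 0.981, 1.41 and 2.20 CPM in the same order, a difference of 2.00 (1.26 to 2.91). Igsf10, an immunoglobulin superfamily member, had 4.51, 2.79, 2.62 and 5.77 CPM, a difference of 1.80 (1.27 to 2.39). In each of these genes KS was below WS and KD was above WD. Col12a1, Postn, Ptn, Clec11a and the actin-associated LIM gene Zfp185 (2.06) were the 5 genes with the largest difference among the 19 with responses in opposite directions.

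**Figure D2:**
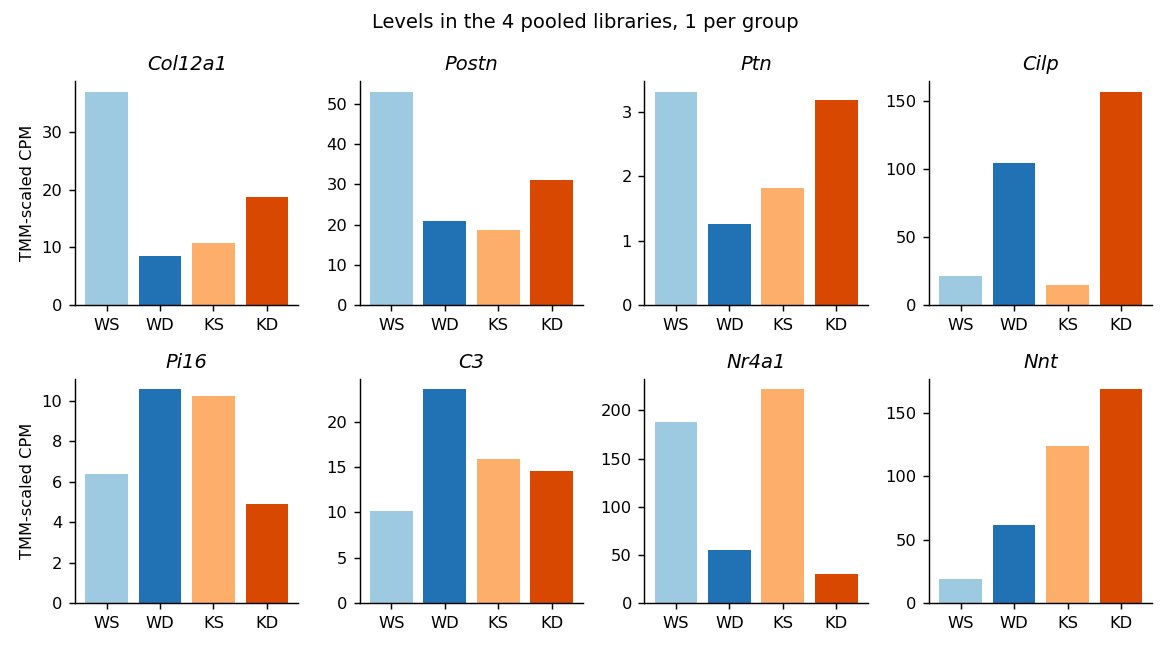
Bars give the TMM-scaled CPM of 8 genes in the 4 pooled libraries (WS, WD, KS, KD), with 1 library per group and no error bar. Col12a1, Postn and Ptn are highest or near highest in WS and again high in KD; Pi16 and C3 are highest in WD, Nr4a1 is highest in KS and lowest in KD, and Nnt is higher in both Fgf21KO libraries than in both WT libraries.

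Genes of fibroblasts and matrix were also at the lower end. Pi16 encodes peptidase inhibitor 16, known as a marker of fibroblasts around vessels. It had 6.41, 10.6, 10.2 and 4.93 CPM (WS, WD, KS, KD). The WT response was 0.72 and the KO response -1.05, a difference of -1.76 (-2.17 to -1.39), the mirror image of Postn. Cd248 encodes endosialin, a surface protein of fibroblasts and pericytes, and had 4.77, 3.31, 5.74 and 1.33 CPM, a difference of -1.54 (-2.21 to -0.96). Pcolce2 encodes an enhancer of procollagen cleavage and had 1.59, 2.27, 3.16 and 1.2 CPM, a difference of -1.84 (-2.70 to -1.12). KD was the lowest of the 4 libraries in all 3 genes. Further stromal genes at the lower end, chosen after their values were seen, were the heparan sulfate proteoglycan Gpc3 (-1.33), the fibulin-like matrix protein Efemp1 (-1.15) and Rarres2 (-1.11), which encodes the adipokine chemerin. Their counterparts at the upper end, chosen in the same way, were Dkk3 (1.46), a secreted member of the dickkopf family, Ccn4 (1.37), a matricellular protein, and Rcn3 (1.15), a calcium-binding protein of the endoplasmic reticulum.

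To show sequence next to members with opposite patterns, the 250 bases before the transcription start are given for Postn, Ptn and Cilp from the upper end and for Pi16 from the lower end. The sequences are those of RefSeq on build GRCm38.p6, 5′ to 3′ on the strand of the gene, and capitals mark the matches to the motifs named after them. Postn lies at chr3:54360857-54361106 (plus strand, the one of its starts whose window holds a TATA box), Ptn at chr6:36810180-36810429 (minus strand), Cilp at chr9:65264930-65265179 (plus strand) and Pi16 at chr17:29318632-29318881 (plus strand).
Postn: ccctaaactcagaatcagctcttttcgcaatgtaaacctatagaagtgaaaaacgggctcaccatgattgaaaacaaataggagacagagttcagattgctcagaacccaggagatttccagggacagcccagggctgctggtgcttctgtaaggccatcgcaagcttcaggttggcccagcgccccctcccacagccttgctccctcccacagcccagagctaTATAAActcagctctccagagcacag
Ptn: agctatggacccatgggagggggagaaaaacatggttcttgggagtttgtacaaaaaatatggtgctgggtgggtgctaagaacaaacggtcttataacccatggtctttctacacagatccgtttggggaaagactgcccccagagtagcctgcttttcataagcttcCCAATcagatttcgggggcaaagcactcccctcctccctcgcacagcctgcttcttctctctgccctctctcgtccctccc
Cilp: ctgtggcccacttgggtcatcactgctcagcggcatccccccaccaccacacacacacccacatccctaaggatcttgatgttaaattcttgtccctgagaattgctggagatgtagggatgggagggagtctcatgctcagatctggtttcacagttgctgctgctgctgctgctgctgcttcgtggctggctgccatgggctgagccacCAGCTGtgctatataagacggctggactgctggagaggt
Pi16: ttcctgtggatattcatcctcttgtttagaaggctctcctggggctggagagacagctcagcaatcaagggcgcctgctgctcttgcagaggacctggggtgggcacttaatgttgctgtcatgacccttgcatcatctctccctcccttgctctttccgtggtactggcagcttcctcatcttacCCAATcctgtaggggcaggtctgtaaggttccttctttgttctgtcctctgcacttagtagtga
The capitals are a TATA box (TATAAA) in Postn, starting at position -26 from the start site, a CCAAT box (CCAAT) in Ptn at -81 and in Pi16 at -64, and an E-box (CAGCTG) in Cilp at -39. Motifs were searched on both strands of all 32851 windows of 300 bases (250 before and 50 after the start). TATAAA occurred in 13.6% of all windows and in 7.03% of those of the genes measured, beside 8 of 87 windows (9.2%) at the upper end and 8 of 56 (14.3%) at the lower end. CCAAT occurred in 37.4% of all windows, in 40.2% at the upper end and in 37.5% at the lower end. CAGCTG occurred in 16.3%, 18.4% and 21.4%, in the same order. The AP-1 motif TGANTCA occurred in 7.81%, 3.45% and 3.57%, beside 4.87% for the genes measured, and the GC box GGGCGG in 35.7%, 57.5% and 42.9%, beside 63.6% for the genes measured. Windows were found for 73 of the 86 genes and for 45 of the 66 genes. These matches are descriptions of letters and not of binding.

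Collagen genes as a family leaned to the upper end but were present at both. Of 43 collagen and collagen-processing genes measured, 5 were at 1 or more and 2 at -1 or less, beside 0.760% and 0.583% of all genes. The list had a median mean count of 394, and 32 of its members were above 0. The median of the list was 0.22, beside -0.0046 for all genes, of which 49.0% were above 0. With the median of each GC class subtracted, it was 0.16. The main fibril-forming collagens were lower after denervation in both genotypes and less so in Fgf21KO. Col1a1 had responses of -1.21 in WT and -0.71 in Fgf21KO (difference 0.49), Col1a2 -1.04 and -0.56 (0.48), and Col5a1 -1.59 and -0.92 (0.67). The 5 members at 1 or more were Col12a1, Col16a1, Col27a1, Col11a2 and Col8a1, chains of several collagen classes. Col16a1 had 11.8, 4.78, 5.77 and 6.42 CPM (WS, WD, KS, KD), a difference of 1.44 (1.05 to 1.87), Col11a2 had a difference of 1.26 and Col8a1 of 1.05. The basement membrane chains Col4a1 (0.24) and Col4a2 (0.21), which are co-transcribed from a shared promoter, differed little. Col4a3 had 3.35, 1.17, 3.36 and 0.389 CPM (WS, WD, KS, KD), a difference of -1.43 (-2.61 to -0.56), so its sham levels were alike and its denervated levels differed. Col14a1, a relative of collagen XII, had a difference of -0.70, opposite in sign to Col12a1.

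The list of fibroblast and fibro-adipogenic progenitor markers was spread widely in both directions, with 15 of 25 below 0. Its 25 members ran from Pi16 (-1.76) to Postn (2.05), with 1 member past each cut, beside 0.760% (upper) and 0.583% (lower) of all genes. Of the 25, 5 were at -0.5 or less and 2 at 0.5 or more. The median was -0.20 (from -0.26 to -0.13 under other scalings and the GC subtraction) and the median absolute difference 0.41, beside 0.155 for all genes. Below 0 lay, among others, the matrix and cytoskeletal genes Dpt (-0.63), Dcn (-0.43), Fbn1 (-0.41) and Gsn (-0.37). Above 0 lay Lum (0.60), Col1a1 and Col3a1 (0.29). Pdgfra, the receptor that defines fibro-adipogenic progenitors, had responses of -0.40 in WT and -0.30 in Fgf21KO, a difference of 0.10 (-0.27 to 0.47). The summed level of the list was 1489, 922, 1444 and 937 CPM (WS, WD, KS, KD), so the sum had nearly the same response in both genotypes while its members diverged. The tendon and cartilage list behaved likewise. Of its 7 members Col12a1 and Cilp were at 1 or more, while Angptl7 was at -0.82 and the cartilage transcription factor Sox9 at -0.67. The tendon marker Fmod was at 0.03. In the basement membrane list, the 33 members had a median of 0.05, from Lamc3 (-1.38), the laminin gamma 3 chain, to Agrn (0.90).

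**Figure D3:**
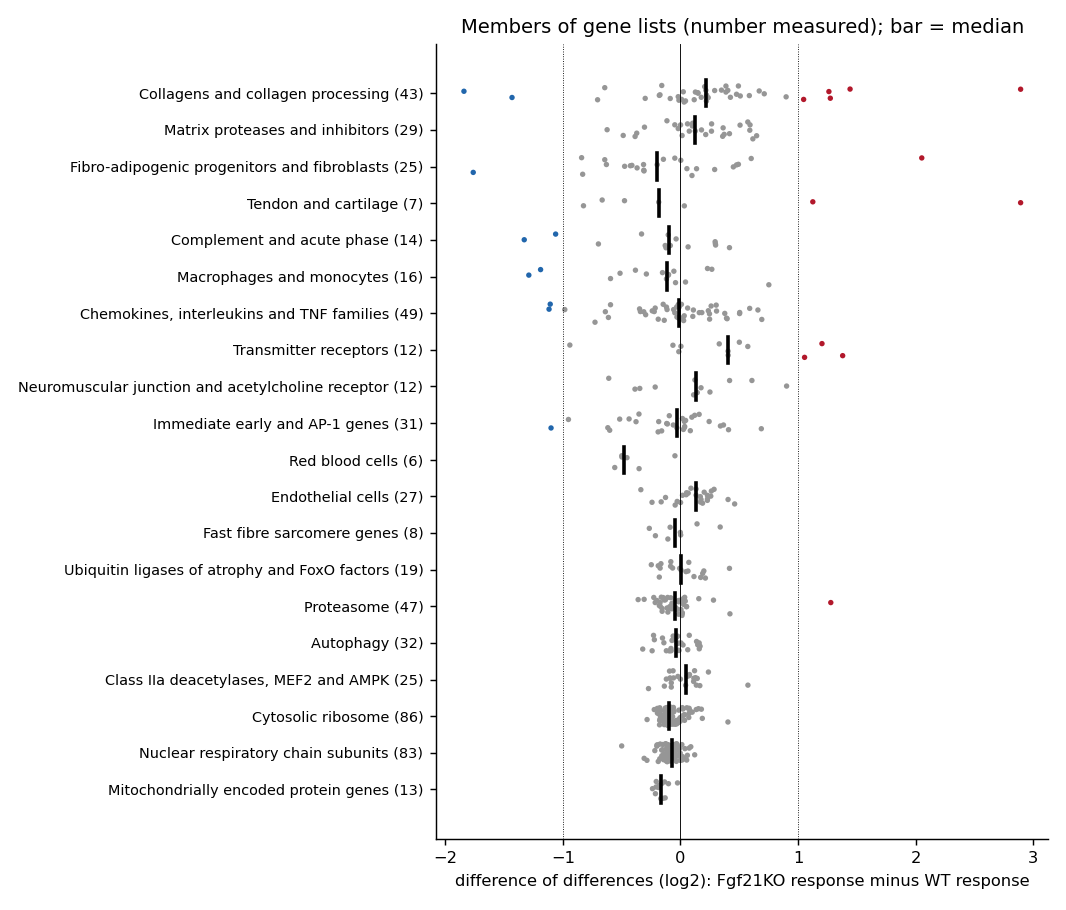
Points are the measured members of 20 gene lists, placed by their difference of differences on the log2 scale, and black bars mark the median of each list. Collagen genes extend from -1.84 to 2.89 and fibroblast markers from -1.76 to 2.05, while autophagy, ribosomal and respiratory chain genes sit close to 0.

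Some complement and macrophage genes were at the lower end. C3, the central complement component, had 10.2, 23.6, 15.9 and 14.5 CPM (WS, WD, KS, KD), a difference of -1.33 (-1.62 to -1.05). C4b had 4.30, 9.91, 6.24 and 6.84 CPM, a difference of -1.06 (-1.50 to -0.64). For both, the WT level was more than 2-fold higher after denervation, while the Fgf21KO libraries were within 0.2 of each other on the log2 scale. Of the 14 complement and acute-phase genes, these 2 were at -1 or less and none at 1 or more. The shares over all genes were 0.583% and 0.760%, and the median mean count of the list was 267. The list median was -0.09, and Cd59a (0.42), an inhibitor of complement lysis, was its highest member. C7, which takes part in the lytic complex and is outside that list, had a difference of -1.18. Among 16 macrophage markers, with a median mean count of 137, 2 were at -1 or less, beside 0.583% of all genes. Cd163, the haemoglobin scavenger receptor of resident macrophages, had 1.07, 2.97, 2.05 and 2.24 CPM (difference -1.29, -2.15 to -0.54). F13a1, a coagulation factor that tissue macrophages make, had 3.78, 5.83, 5.20 and 3.47 CPM (-1.19, -1.72 to -0.70). The list had a median of -0.11, with 12 of 16 members below 0 and 4 at -0.5 or less, the others being the CSF1 receptor gene Csf1r (-0.59) and the complement gene C1qc (-0.51). Cd68 (-0.10), Spp1 (-0.10) and Lyz2 (0.04) were nearer 0, and the galectin gene Lgals3 (0.75) was the highest. Ptprc, which encodes the leukocyte antigen CD45, is outside the list and was chosen after its values were seen. It was at the upper end with 1.29, 2.12, 0.839 and 2.92 CPM, a difference of 1.03 (0.19 to 1.97). The summed level of the macrophage list was 65.1, 251, 67.8 and 239 CPM (WS, WD, KS, KD). Among 49 chemokine, interleukin and TNF family genes the median was -0.02, at a median mean count of 163.5. Of the 49, Cx3cl1 (-1.12) and Ccl6 (-1.11) were at -1 or less, beside 0.583% of all genes.

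Interferon-induced genes had a median near 0 (0.04 over 48 members), with 6 members at -0.5 or less and 1 at 0.5 or more. The median log2 ratio of Fgf21KO over WT was 0.21 in sham and 0.17 in denervated muscle. Only 1 member was past a cut. That member, the GTPase gene Ifi47, had 1.93, 2.67, 3.46 and 1.81 CPM (WS, WD, KS, KD), a difference of -1.36 (-2.09 to -0.69). The predicted gene Gm12185 had 0.903, 24.9, 3.29 and 27.4 CPM, a difference of -1.65 (-2.42 to -1.03). It overlaps the interferon-induced gene Tgtp1 (-0.0097) on the same strand, so its value is uncertain. Its denervated levels were alike and its sham level was higher in Fgf21KO. The guanylate-binding protein gene Gbp10 (-1.12) had the same form, with 3.31 CPM in WS and 8.49 in KS against 20.2 in WD and 23.6 in KD.

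Metabolic and signalling genes were few at either end. Nr4a1 encodes an immediate-early nuclear receptor that responds to muscle activity. Its levels were 188, 55.4, 222 and 30.5 CPM (WS, WD, KS, KD), a difference of -1.10 (-1.23 to -0.98). Among 31 immediate-early and AP-1 genes it was the only one past a cut. Next to it stood Fos (-0.95), Atf3 (-0.62) and Maff (-0.60), while Egr1, Junb and Sik1 were within 0.05 of 0 and Klf4 (0.69) was the highest. Nr3c2 encodes the mineralocorticoid receptor and was chosen after its values were seen. It had 16.3, 8.28, 12.1 and 17.1 CPM, a difference of 1.47 (1.18 to 1.78). Of 12 transmitter receptors, 3 were at 1 or more, beside 0.760% of all genes. They were the endothelin receptor Ednra (1.38), the adrenergic receptor Adra1a (1.2) and the ATP-gated channel P2rx4 (1.06). In all, 9 of the 12 were above 0 and 3 below. The lowest was a second adrenergic receptor, Adra1b (-0.94, -3.68 to 1.08), with 2 counts in WS and 5 in KS. The median of that list was 0.41 at a median count of 94.6 per gene, where values spread widely. The store-operated calcium channel gene Orai2 had 1.68, 4.45, 0.806 and 6.19 CPM, a difference of 1.47 (0.74 to 2.33), and its relative Orai1 was at -0.31.

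Nnt stood apart in sham muscle, where its level was higher in Fgf21KO by 2.71 on the log2 scale. It encodes the mitochondrial transhydrogenase that makes NADPH, and part of this gene is deleted in the C57BL/6J strain. Its level was 19, 61.7, 124 and 169 CPM (WS, WD, KS, KD). Both Fgf21KO libraries were above both WT libraries, and the response was 1.70 in WT and 0.44 in Fgf21KO, a difference of -1.26 (-1.42 to -1.10). Strain background and Fgf21 genotype cannot be told apart here. The gene model Gm27177, chosen after its values were seen, had the reverse gap with 64, 132, 5 and 3 counts (WS, WD, KS, KD), and the interval of its difference of -1.06 ran from -3.45 to 0.76.

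Several extreme values belong to gene models that share sequence with others. Gm28043, the highest gene, had 1.89, 1.93, 0.806 and 9.62 CPM (WS, WD, KS, KD) (3.44, 2.73 to 4.37). In GENCODE M21 it overlaps Cmtr1 (0.22) and Rnf8 (-0.20) on the same strand. Rsc1a1 had 552, 5, 615 and 53 counts, a difference of 3.21 (2.35 to 5.02), and lies within Ddi2 (-0.15). Gm21992 (-1.68) overlaps Rbm4 (0.82) and Rbm14 (0.62), and Atrip (-1.52) overlaps Trex1 (-0.08). How reads were divided between overlapping models is not given in the sources used here, so these values are uncertain. In all, 4 genes at the upper end and 5 at the lower end overlapped another measured gene on the same strand. Gene models without a gene name made up 7 of 86 and 14 of 66. Other members among the 15 highest were the histone gene H2aw (2.27), the sodium-calcium-potassium exchanger Slc24a3 (1.74), Fam107b (1.73), the zinc finger genes Zfp968 (1.62) and Zfp366 (1.48), Glb1l (1.55) and Armcx2 (1.51). Among the 15 lowest were also Zfp605 (-1.67), LOC115489886 (-1.60), Gm34758 (-1.59) and 4833439F03Rik (-1.37). Of 151 genes past a cut placed in RefSeq order, only the pairs Zfp968 with Gm4724 (1.05) and Rin1 (1.39) with Cd248 were direct neighbours among measured genes, the first with like and the second with opposite signs.

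The difference of differences equals the genotype gap (Fgf21KO over WT, log2) in denervated muscle minus that in sham muscle. Genes past a cut were chosen by that difference, which favours gaps of opposite sign, so the gaps are given as a description. Among the 86 upper genes the median gap was -0.77 in sham and 0.48 in denervated muscle, and 81 had gaps of opposite sign. Among the 66 lower genes the medians were 0.67 and -0.55, and 52 had gaps of opposite sign. The sham gap was the larger in 55 of 86 and in 38 of 66. For all genes the median absolute gap was 0.132 in sham and 0.097 in denervated muscle, and 68 and 46 genes respectively were at least 2-fold apart. Col12a1 had gaps of -1.77 in sham and 1.13 in denervated muscle, and Postn -1.50 and 0.56. Pi16 had 0.67 and -1.09. Rsc1a1 differed mainly in denervated muscle (-0.20 and 3.01), as did Zfp968 (-0.25 and 1.36), and Orai2 more in sham (-0.997 and 0.47).

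**Figure D4:**
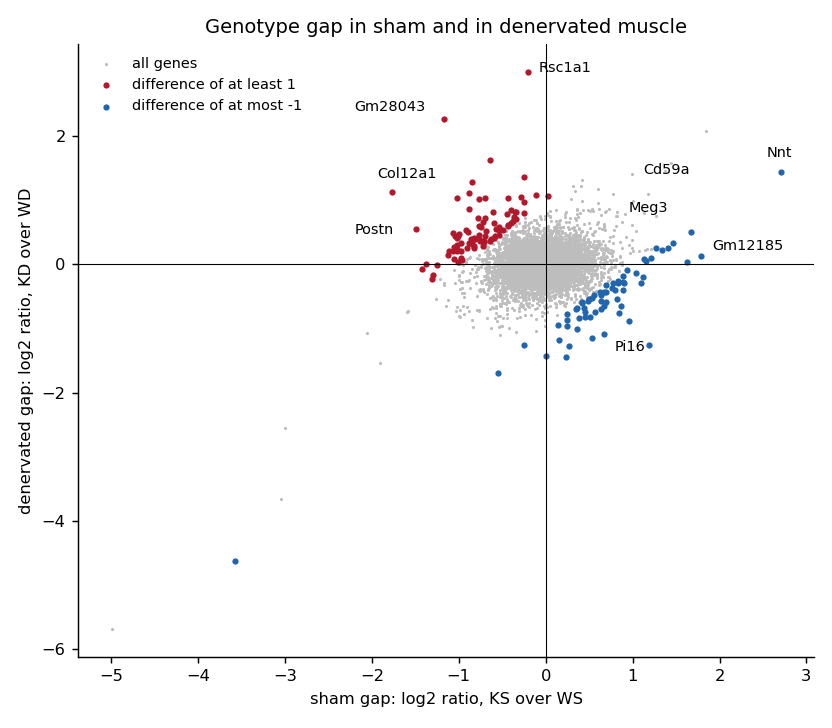
Each point is 1 gene, with the log2 ratio of Fgf21KO over WT in sham muscle (horizontal axis) and in denervated muscle (vertical axis). Upper genes (red) lie mostly at upper left and lower genes (blue) at lower right, with gaps of opposite sign; Nnt stands at 2.71 and 1.45, and Meg3 at 0.83 on both axes.

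By response, 47 of the 86 upper genes were lower after denervation in WT and higher in Fgf21KO, 24 were higher in both and 15 lower in both. Of the 66 lower genes, 27 were higher in WT and lower in Fgf21KO, 24 were higher in both and 15 lower in both. Genes higher in both include Cilp and Orai2 at the upper and Nnt and Gm12185 at the lower end, and genes lower in both include Rsc1a1 at the upper and Nr4a1 at the lower end.

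Among the 3853 genes averaging 1000 counts or more, 88.8% were within 0.25 of 0, 19 were at 0.5 or more and 20 at -0.5 or less. After Cilp, the highest were Map1b (0.84), Cpne2 (0.83), Akap2 (0.80), Mgp (0.72), Kmt2a (0.69), Ptgfrn (0.61) and Utrn (0.61). Map1b encodes a microtubule protein of growing axons and regenerating fibres and had 12.8, 99.5, 8.02 and 112 CPM (WS, WD, KS, KD). Cpne2, a calcium-dependent membrane-binding protein, had 7.40, 174, 4.6 and 193 CPM. In both, the sham levels differed more than the denervated levels. Mgp encodes matrix Gla protein, which limits calcification, and had 39.3, 40.1, 25.5 and 42.9 CPM, so KS alone stood apart. After Nnt and Nr4a1, the lowest were Plekhh1 (-0.91), Mlf1 (-0.87), Cdkn1a (-0.77), Gm20300 (-0.66), Dusp10 (-0.63) and Ifrd1 (-0.63). Cdkn1a encodes the cell cycle inhibitor p21 and had 7.52, 366, 11.3 and 323 CPM (WS, WD, KS, KD), a difference of -0.77 (-1.04 to -0.51). The interval for Plekhh1, which had 8 counts in WS, was -2.21 to 0.09.

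Some of the genes with the largest responses had nearly equal ones in both genotypes. Those named here were chosen for a difference within 0.1 of 0, so their closeness is a description. Of the 188 genes with a mean ratio of at least 2, 38.3% were within 0.25 of 0, beside 72.9% of the 7130 genes with a mean ratio between -0.5 and 0.5. Large responses with a difference of 1 or more include those of Ces2c (1.35) and Mycl (1.0054), chosen after their values were seen, with at most 9 counts in either sham library and intervals that include 0. Ankrd1, a stretch-responsive ankyrin repeat gene, had 13.9, 1020, 13.1 and 951 CPM (WS, WD, KS, KD), a difference of -0.01 (-0.23 to 0.20). Gadd45a, a growth arrest gene that drives part of the atrophy programme, had 27.9, 708, 27.2 and 709 CPM, a difference of 0.04 (-0.12 to 0.19). Aif1l had 3.05, 216, 2.89 and 211 CPM, a difference of 0.04 (-0.41 to 0.50). These pairs of libraries gave nearly the same levels in each condition. The others with a large positive response and a difference within 0.1 of 0 were Tiam2 (-0.02), Srrm4os (0.06) and 5033421B08Rik (0.03). Those with a large negative response were Amd-ps3 (0.02), a pseudogene that can share reads with its parent gene of polyamine synthesis, Rnf150 (0.04), Frat2 (-0.01), Meg3 (-0.0007) and the transfer RNA genes TrnM (0.04) and TrnR (-0.04). Meg3, an imprinted non-coding RNA, was 0.83 higher on the log2 scale in Fgf21KO in sham and in denervated muscle, so a gap in level came with no gap in response.

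Most genes of protein degradation were close to 0, as were most genes with deep counts. All 19 ubiquitin ligase and FoxO genes were between -0.25 (Cblb) and 0.42 (Znrf3), and Fbxo32, which encodes the atrophy ligase atrogin-1, had 292, 639, 270 and 666 CPM (WS, WD, KS, KD), a difference of 0.17 (0.12 to 0.23). Of 32 autophagy genes 31 were within 0.25 of 0 (96.9%), and of 47 proteasome genes 42 (89.4%). The share was 69.7% over all genes and 88.8% among genes averaging 1000 counts or more. Both lists were deep, with median mean counts of 1965 and 3916. Of the proteasome genes, the assembly chaperone Psmg4 (1.28, mean count 118) alone was past a cut. The lysosome list of 43 had a median of -0.0029, and its highest member was the collagen-degrading cathepsin Ctsk (0.98). Of 25 genes of class IIa deacetylases, MEF2 and AMPK, 23 were within 0.25 of 0 (92.0%), at a median mean count of 1628. Hdac4, which encodes a deacetylase that is induced by denervation, had 44.3, 289, 41.4 and 299 CPM, a difference of 0.14 (0.02 to 0.27). Hdac5 (-0.09) and Hdac9 (-0.12) were alike between genotypes, and Hdac7 (0.57) was lower after denervation in both with the larger fall in WT.

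The FGF and TGF-beta lists had medians above 0. The 20 FGF ligands, receptors and feedback inhibitors had a median of 0.18, with 16 above 0 and 11 within 0.25 of 0, from Etv5 (-0.61) to the FGF signalling inhibitor Il17rd (0.66). The 42 genes of activin, TGF-beta and BMP signalling had a median of 0.12, with 28 above 0. Inhbb, which encodes an activin subunit, was the one member past a cut, with 0.989, 2.30, 0.571 and 2.82 CPM and a difference of 1.01 (0.08 to 2.09).

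Of 26 genes listed for the neuromuscular junction, only 12 were measured here. These 12 had a median of 0.13 and none was past a cut. Agrn encodes agrin, the nerve and muscle signal that clusters acetylcholine receptors, and had 32.0, 20.6, 20.0 and 24.1 CPM (WS, WD, KS, KD). Its response was -0.63 in WT and 0.27 in Fgf21KO, a difference of 0.90 (0.69 to 1.12), with WS above the other 3 libraries. Utrn, the utrophin gene, had 55.0, 46.6, 37.4 and 48.4 CPM, a difference of 0.61 (0.45 to 0.76), and KS was the lowest. The receptor subunit gene Chrnb1 (0.18), the agrin receptor gene Lrp4 (0.12) and Erbb2 (0.11) differed little, and Ncam1 was at 0.42. Ache (-0.39) and the transcription factor gene Etv5 (-0.61) were below 0. The other genes that the study singled out lay between Fos (-0.95) and Myh1 (0.34). Ccn2, a matricellular target of TGF-beta, was at -0.35, while Tgfb1 (0.14), Smad2 (0.20) and Smad3 (0.10) were near 0. So were Jun (-0.12), Fgfr1 (0.10), Mapk8 (0.17), Mapk9 (0.06), Map1lc3b (0.0047) and Prkaa1 (0.11), with Prkaa2 at -0.27 and Fgfr4 at 0.23.

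Mitochondrial, ribosomal and glycolytic genes had small values, mostly below 0. Median differences also fell with depth, from 0.09 in the decile of genes with the lowest counts to -0.06 in the decile with the highest. The median mean count was 8693 for nuclear respiratory chain genes and 12431 for glycolytic genes. It was 6312 for cytosolic and 1218 for mitochondrial ribosomal genes. The part of depth in the values of these lists was not tested. All 13 mitochondrially encoded protein genes were below 0, from ND3 (-0.24) to ND6 (-0.02), with a median of -0.17 (12 of them with total counts alone). Their share of all counts was 27.0% (WS), 19.4% (WD), 30.4% (KS) and 20.6% (KD). The 83 nuclear respiratory chain genes had a median of -0.07 with 72 below 0, the 86 cytosolic ribosomal genes -0.10 with 69 below 0, the 78 mitochondrial ribosomal genes -0.11 with 60 below 0, and the 46 glycolytic genes -0.13 with 40 below 0. With total counts alone the median of all genes moved from -0.0046 to 0.065 and these lists moved with it, to -0.10, -0.0033, -0.03, -0.04 and -0.06 in the same order, so that each stayed below the median of all genes. Of the respiratory chain genes, 42 of 83 were then below 0. Sarcomere genes lay on both sides of 0. The 8 fast-fibre genes had a median of -0.04 (0.03 with total counts alone), from Tpm2 (-0.26) to Myh1 (0.34), and the 7 slow-fibre genes had a median of 0.12, from Csrp3 (-0.57) to Tnnc1 (0.80). Csrp3, muscle LIM protein, had 64.8, 325, 111 and 375 CPM, a difference of -0.57 (-0.67 to -0.48).

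Markers of blood differed between the libraries in a like way. The 6 red cell genes measured were all below 0 (5 of them with total counts alone), with a median of -0.48, from Hbb-bt (-0.56) to Bpgm (-0.05). Their summed level was 408, 258, 444 and 216 CPM (WS, WD, KS, KD), and the part of blood content in other results was not tested. The 27 endothelial genes had a median of 0.13, from Emcn (-0.34) to Flt1 (0.46), with summed levels of 2379, 1041, 2069 and 989 CPM. Schwann cell markers ran from the neurotrophin receptor gene Ngfr (-1.07) to Prx (0.55), with summed levels of 85.9, 133, 81.2 and 137 CPM, and smooth muscle markers from Lmod1 (-1.33) to Notch3 (0.48). Of the defining markers of these cells, Adipoq, Plin1, Tnmd, S100a8, Cd79a, Cd3e and Pax7 were not analysed here.

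Depth limited the extremes. Among the 1136 genes with mean counts from 50 to 99.75 the SD of the difference was 0.561, and 49 genes were at 1 or more and 39 at -1 or less. Among the 1132 genes with the highest counts the SD was 0.139 and none was past either cut. Of the 86 upper genes, 72 had a mean count under 200, and of the 66 lower genes, 56. The counting interval left out 0 for 84 of 86 and 65 of 66, which follows in part from the choice of extreme values. Median differences also moved with the GC content of transcripts, from -0.08 in the decile of genes with the lowest GC to 0.05 in the decile with the highest. In sham muscle the gap moved from 0.08 to -0.08 and in denervated muscle from -0.0024 to -0.03, and the part of GC content in single genes was not tested.

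**Figure D5:**
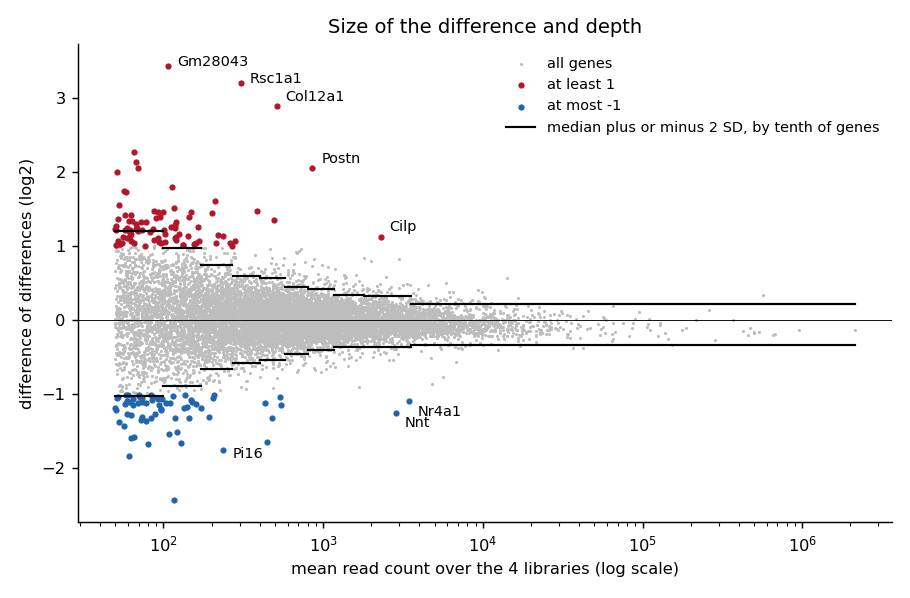
Each point is 1 gene, with the mean read count over the 4 libraries on a log axis and the difference of differences (log2) on the vertical axis. Black steps mark the median plus or minus 2 SD in each decile of genes by count and narrow with depth; Postn, Col12a1, Cilp, Nr4a1 and Nnt lie outside them at their depth.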

How the data were processed

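RNA of 4 TA muscles per group was pooled and sequenced as 1 library per group with a stranded mRNA kit. The authors deposited raw read counts per gene; the submitters' notes name GRCm39 and FastQC, and the aligner and counter are not given in the sources used here. A second deposited table, named for FPKM, holds log2 values that match scaled counts (1 factor for each library, 1 added, no gene length) and served only as an alternative. Counts were scaled by TMM (edgeR 4.0.16, R 4.3.3) and turned into log2 CPM (prior count 2, library totals over all genes), and genes averaging 50 counts or more were kept. The study's edgeR test was not run, since 1 library per group leaves no spread to test against. Counting intervals (95%) took 4 Poisson counts without the prior. Scripts (Python 3.11.15, DESeq2 1.42.0 for size factors) were tested on simulated data with 200 changed genes.

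Named genes were the 15 highest and 15 lowest differences, the 8 highest and lowest among genes averaging 1000 counts or more, the 5 largest in opposite directions, the 6 highest and lowest responses within 0.1 of 0, both ends of each of 51 gene lists with at least 5 members, and genes the study names; others were chosen after their values were seen, and some that the rule names are not reported here. Members and lists were chosen with earlier results of these data known. GENCODE M21 (GRCm38) gave overlaps and transcript GC content, for 97.9% of genes. Alternatives were DESeq2 size factors, total counts, TMM without mitochondrially encoded genes, mean counts of at least 10 or 200, no filter, at least 50 counts in every library, prior counts of 0.125 and 5, and the deposited log2 values; subtracting GC class medians was added after seeing the data.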

Additional observations from a re-analysis of the deposited data

Results flagged for a closer look

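Of the genes named by the rule given above, 17 had a WT and a KO response of opposite direction, each with a counting interval that left out 0. Over all genes there were 141. Some genes named outside that rule were also of this kind, among them Nr3c2 (1.47), C7 (-1.18) and F13a1 (-1.19). They are left out of the 17 and of the lists below. With 1 library per group the difference between genotypes was not tested. Lower in WT and higher in Fgf21KO after denervation were Col12a1 (difference 2.89), Ptn (2.14), Zfp185 (2.06), Postn (2.05), Clec11a (2.00), Igsf10 (1.80), Armcx2 (1.51), Ctsk (0.98), Agrn (0.90) and Utrn (0.61). Higher in WT and lower in Fgf21KO were Pi16 (-1.76), Zfp605 (-1.67), Atrip (-1.52), 4833439F03Rik (-1.37), Gm20300 (-0.66), Etv5 (-0.61) and Hspb6 (-0.38). With total counts in place of TMM, the responses of Utrn (0.04 in WT and 0.72 in Fgf21KO), Gm20300 (0.80 and 0.21), Etv5 (0.63 and 0.09) and Hspb6 (0.39 and 0.08) no longer had opposite directions, while those of the other 13 did.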

How the results depend on the processing

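No paired analysis was possible because the samples carry no replicate numbers, with 1 pooled library in every group, and for the same reason no library could be left out. The numbers of genes at 1 or more and at -1 or less (86 and 66) were 308 and 230 with genes averaging 10 counts or more, 399 and 288 with no filter, 39 and 25 with at least 50 counts in every library, 14 and 9 with genes averaging 200 or more, and 25 and 15 on the deposited log2 values. With total counts only they were 114 and 49, which moved the share at the upper end from 56.6% to 69.9%, and the median response of all genes moved from 0.01 to 0.29 in WT and to 0.36 in Fgf21KO. Genes at least 2-fold changed in opposite directions numbered 3 with total counts only, 11 with genes averaging 10 counts or more and 18 with no filter. The median difference of rising genes was 0.076 with total counts only. No gene past a cut crossed to the other end under the 11 alternatives. Rsc1a1 was at 1.41 and Gm28043 at 2.52 on the deposited log2 values.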
